A study of Mus musculus with 18 samples.

Results

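Rapamycin was compared with its solvent DMSO in DR-ER-Hoxb8 cells, a mouse myeloid progenitor line, after 3 days of differentiation. The comparison took all 4 libraries that the series holds for these conditions, out of 18 libraries in all. A gene entered it with a value of 1 or more in at least 2 of the 4 libraries, which 11527 of the 22787 listed genes reached. The groups were rapamycin at 100 nM (2 libraries), SL0101-01 at 10 nM, used here only for comparison (2 libraries), and DMSO (2 libraries). Every culture had been kept immature with b-estradiol and was then moved to medium that held SCF and no b-estradiol, so all groups share the same cytokine and the same removal of the hormone. Raptor KO and Raptor fl/fl granulocyte-monocyte progenitors, sorted from mouse bone marrow (3 libraries each), served as a comparison that shares no library with the line. Tsc2 KO and Tsc2 fl/fl progenitors (3 libraries each) entered the fits that gave the Raptor KO p values, but their own values are not reported. The labels do not say whether libraries of a group came from separate cultures, so p values measure only the spread between these libraries. The line is a single immortalized population, and the data used here hold no measure of mTORC1 or RSK activity.

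Rapamycin binds FKBP12, and the pair inhibits mTORC1, the kinase complex built on mTOR and Raptor that links nutrient and growth factor signals to protein synthesis, ribosome production, lipid synthesis and the control of lysosomes and autophagy. Among mTORC1's best known outputs are the messages of ribosomal proteins and translation factors, whose 5′ ends start with a run of pyrimidines and whose translation depends on the complex. In ER-Hoxb8 lines an estrogen receptor fusion holds Hoxb8 active while estradiol is present and blocks differentiation; once estradiol is removed, the cells lose their progenitor program and mature towards neutrophils or macrophages, depending on the cytokine. Early neutrophil precursors make the proteases of the primary granules, later ones the proteins of the secondary granules.

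Values are signal units: fragments that the authors estimated for each gene, scaled by their size factor of the library, so that 1 fragment was worth 0.917 and 1.12 units in the rapamycin libraries and 0.790 and 0.830 units in the DMSO libraries. The rapamycin libraries held 2.76 and 2.31 M fragments and the DMSO libraries 3.08 and 3.10 M. Between 11103 and 11842 genes per library reached a value of 1. Fold changes are differences of log2(value + 1), rapamycin minus DMSO, which understates changes of genes near 0. Their standard errors (SE) and p values come from limma with 2 libraries a group, and a gene passed at a Benjamini-Hochberg adjusted p under 0.05. Bulk RNA cannot tell fewer cells of a kind from less RNA per cell, and this holds for every result here.

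In rapamycin 1383 of 11527 genes passed, which is 12.0% of those tested. Of these, 632 (5.48%) were higher in rapamycin and 751 (6.52%) were lower. At least 2-fold differences made up 298 of the higher and 317 of the lower genes. The median log2 fold change of all tested genes was -0.01. Leaving out 1 library reduced the number of higher genes to 413 without the first rapamycin library, 257 without the first DMSO library and 262 without the second, and the number of lower genes to 251 and 221 without the first and the second DMSO library. All 1383 genes that passed had rapamycin and DMSO libraries that did not overlap, as did 6099 of all tested genes.

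**Figure D1:**
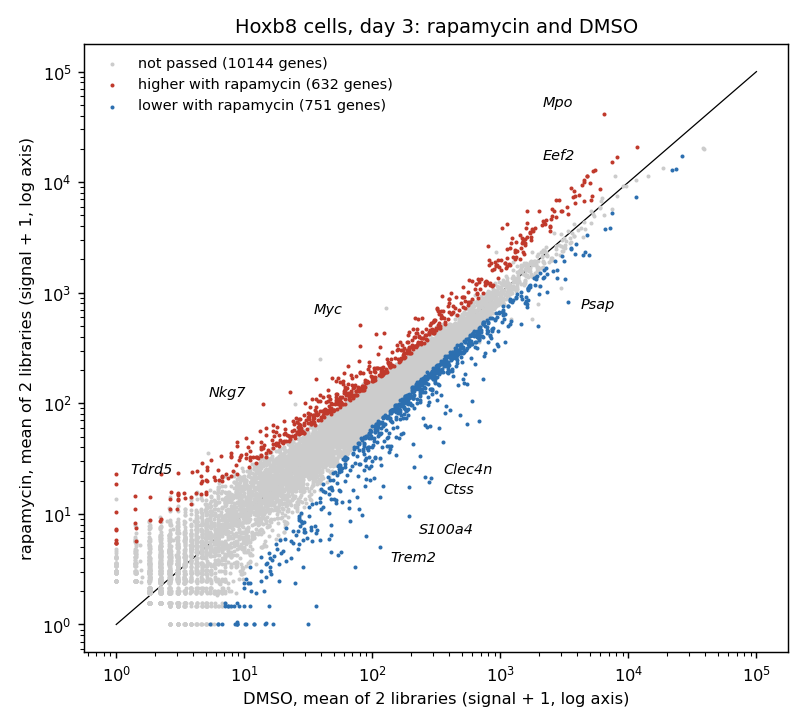
Mean signal plus 1 per gene in rapamycin (vertical axis) against DMSO (horizontal axis), both on log scales, n = 2 libraries each; coloured points are the 632 genes that were higher and the 751 that were lower in rapamycin, grey points the other tested genes. Mpo and Myc lie far above the diagonal, and Ctss, Clec4n and Trem2 far below it.

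The most abundant gene of the rapamycin libraries was Mpo, which encodes myeloperoxidase, the hallmark enzyme of primary (azurophil) granules. Mpo had 43030 and 39290 units in rapamycin, against 6305 and 6634 units in DMSO. Both rapamycin libraries were far above both DMSO libraries, by 2.67 ± 0.14 on the log2 scale (SE, n = 2 each, limma adjusted p = 3.24e-10). Serine proteases of the same granules were higher too. Elane, neutrophil elastase, had 3551 and 4836 units in rapamycin, against 1154 and 1109 units in DMSO. Ctsg, cathepsin G, had 3475 and 4290 units in rapamycin, against 865 and 1178 units in DMSO. Prtn3, proteinase 3, had 5175 and 5807 units in rapamycin, against 1545 and 1680 units in DMSO. The groups stayed apart for each of these proteases, with log2 fold changes of 1.87 for Elane, 1.93 for Ctsg and 1.77 for Prtn3. Nkg7, which encodes a granule membrane protein of cytotoxic and myeloid cells, had 96.2 and 98.5 units in rapamycin, against 11.1 and 14.9 units in DMSO. Its log2 fold change of 2.83 was the largest of the primary granule list (adjusted p = 1.45e-05).

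Of the 18 tested primary granule genes, 12 were higher in rapamycin and 3 were lower, and their median log2 fold change was 0.86, against -0.01 over all tested genes. The lower ones were Lyz1, Lyz2 and Hp, which were named after their values were seen. Lyz1 and Lyz2 encode lysozyme, which is made in granulocytes and macrophages alike, and Hp encodes haptoglobin. Lyz2 had 13620 and 12900 units in rapamycin, against 22130 and 25360 units in DMSO (adjusted p = 0.000143). The difference in Hp was the smallest of the 3, at -0.50, and lost its call without the first (adjusted p = 0.0594) or the second DMSO library (adjusted p = 0.198). Without trend and robust moderation 6 genes of the list were higher and none was lower.

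Of the 29 tested secondary granule and maturation genes none was higher in rapamycin, 12 were lower and 17 did not pass, with a median log2 fold change of -0.89. Cd177, a surface protein of mature neutrophils, had 21.1 and 20.2 units in rapamycin, against 272 and 239 units in DMSO. Both rapamycin values were more than 10-fold below either DMSO value, and the log2 fold change was -3.56 ± 0.24 (SE, n = 2 each, adjusted p = 5.84e-09). Fpr1, a receptor for formylated bacterial peptides, had 66.9 and 51.5 units in rapamycin, against 254 and 409 units in DMSO, a log2 fold change of -2.44. Cybb, the catalytic subunit of the phagocyte oxidase, had 1064 and 961 units in rapamycin, against 2167 and 2500 units in DMSO (log2 fold change -1.20, adjusted p = 3.41e-05). Of the 8 oxidase genes, 3 were lower and none was higher, with 1 lower without the second DMSO library. Fpr2, a related receptor, was lower by -1.12 on the log2 scale, a call that was lost without the second DMSO library (adjusted p = 0.0657).

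Some abundant late genes differed widely between the rapamycin libraries and did not pass. Camp, the cathelicidin of secondary granules, had 651 and 1538 units in rapamycin, against 2707 and 3232 units in DMSO (log2 fold change -1.56, adjusted p = 0.152). Over the alternatives its log2 fold change lay between -2.18 and -0.94. S100a8, a calprotectin subunit that was named after its values were seen, had 12350 and 27200 units in rapamycin, against 33030 and 45320 units in DMSO (adjusted p = 0.339). In both genes the first rapamycin library was the lower of the rapamycin pair by more than 2-fold. Ltf, lactoferrin, had 7765 and 6805 units in rapamycin, against 10970 and 11900 units in DMSO. Ltf passed with all libraries (log2 fold change -0.65, adjusted p = 0.016) but not without the second rapamycin library (0.134), the first DMSO library (0.123) or the second DMSO library (0.214). For the whole list, 8 genes were lower without the first rapamycin library, 4 without the second DMSO library and 2 without trend and robust moderation.

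Monocyte and macrophage genes had the lowest median of all lists with more than 10 tested genes. Of 41 tested, 22 were lower in rapamycin and 1 was higher, with a median log2 fold change of -1.0. Trem2, a lipid-sensing receptor of macrophages, had 4.58 and 3.36 units in rapamycin, against 99.6 and 127 units in DMSO. Ctss, cathepsin S, had 25.7 and 14.6 units in rapamycin, against 259 and 315 units in DMSO. Clec4n, the C-type lectin dectin-2, had 19.2 and 17.9 units in rapamycin, against 228 and 320 units in DMSO. Rapamycin libraries were close to the bottom of the measurable range for Trem2 and more than 10-fold below DMSO for Ctss and Clec4n, with log2 fold changes of -4.52, -3.81 and -3.79. Tlr2, a receptor for bacterial lipoproteins, and Lgals3, galectin-3, were lower by -1.89 and -1.99. Gpnmb, a glycoprotein of lysosomes and macrophages, had 3.67 and 3.36 units in rapamycin, against 49.0 and 44.0 units in DMSO (adjusted p = 0.000149). Of the monocyte list, 14 genes were lower without the second DMSO library and 10 without trend and robust moderation. The single gene that was higher was Cd14, the lipopolysaccharide co-receptor, with 1059 and 917 units in rapamycin, against 372 and 443 units in DMSO (named after its values were seen; log2 fold change 1.28, adjusted p = 8.85e-06).

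Some classical monocyte markers did not pass. Csf1r, the receptor for M-CSF, had 805 and 363 units in rapamycin, against 1669 and 1850 units in DMSO. Both rapamycin values were lower, by -1.70 on the log2 scale, but they differed widely, and Csf1r missed the threshold (adjusted p = 0.0508). Over the alternatives its log2 fold change lay between -2.27 and -1.13. A fit without 1 of the rapamycin libraries cannot measure the spread between them, so its p value is not given. Ly6c2, a surface marker of inflammatory monocytes, had 1323 and 1550 units in rapamycin, against 1322 and 1889 units in DMSO, and the groups overlapped. Itgam, the CD11b integrin of granulocytes and monocytes, had 2190 and 1805 units in rapamycin, against 2481 and 2615 units in DMSO (adjusted p = 0.118).

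The 15 lowest fold changes among well-measured genes held further myeloid surface and signalling genes. S100a4, a calcium-binding protein linked to cell motility, had 8.25 and 8.96 units in rapamycin, against 165 and 217 units in DMSO, a log2 fold change of -4.31 (adjusted p = 2.65e-08). Cd302, a lectin-like receptor of phagocytes, had 4.58 and 0 units in rapamycin, against 73.5 and 69.7 units in DMSO. Fblim1, a filamin-binding adaptor of adhesion sites, was listed at 0 in both rapamycin libraries, against 23.7 and 37.4 units in DMSO, and so entered the test only through DMSO. Tlr9, an endosomal receptor for DNA, had 0.917 and 0 units in rapamycin, against 27.7 and 42.3 units in DMSO, and also entered only through DMSO. Cd302 reached a value of 1 in only 1 rapamycin library, so it too needed the DMSO libraries to enter. Cd302, Fblim1 and Tlr9 were at or near 0 in rapamycin, S100a4 was low but measured, and all were well above these levels in both DMSO libraries. P2rx7, an ATP-gated channel, Hpse, heparanase, and Tpm4, a tropomyosin, also belonged to this set, with log2 fold changes of -4.30, -3.97 and -3.48. P2rx7 was listed at 0 in the second rapamycin library and likewise needed the DMSO libraries to enter.

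Some genes known for the progenitor state were higher in rapamycin. Myc, the growth-promoting transcription factor, had 569 and 459 units in rapamycin, against 90.9 and 68.1 units in DMSO. Myb, a factor that maintains immature haematopoietic cells, had 599 and 591 units in rapamycin, against 248 and 179 units in DMSO. Kit, the receptor for the SCF in the medium, had 1225 and 1046 units in rapamycin, against 541 and 480 units in DMSO. None of these genes overlapped between groups, and the log2 fold changes were 2.69 ± 0.18 for Myc (adjusted p = 5.84e-09), 1.49 ± 0.17 for Myb (5.35e-06) and 1.15 ± 0.15 for Kit (2.27e-05; SE, n = 2 each). Cd34, also known for progenitors, had 47.7 and 47.0 units in rapamycin, against 74.3 and 29.05 units in DMSO. Its groups overlapped, and it did not pass (adjusted p = 0.981). Of the 20 tested stem and early progenitor genes, 3 were higher and 16 did not pass, with a median of 0.55. The interferon-induced membrane protein gene Ifitm3 was the 1 that was lower. Ifitm3 had 270 and 448 units in rapamycin, against 1015 and 1168 units in DMSO. Hoxb8, named as the gene that defines the line, had 803 and 728 units in rapamycin, against 627 and 552 units in DMSO, and its adjusted p of 0.0924 missed the threshold; the files do not tell fusion from endogenous transcripts.

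Among 42 tested myeloid transcription factor genes, 2 were higher in rapamycin and 13 were lower, with a median of -0.16. The count of higher genes was near the 5.48% of all tested genes, of which 6.52% were lower. The higher ones were Runx3, a Runt-domain factor, and Gfi1, a repressor needed for neutrophil development. Runx3 had 116 and 123 units in rapamycin, against 56.1 and 46.5 units in DMSO. Gfi1 had 99.9 and 133 units in rapamycin, against 55.3 and 33.2 units in DMSO, a call that was lost without the second DMSO library (adjusted p = 0.0691). Id2, an inhibitor of helix-loop-helix factors, had 285 and 408 units in rapamycin, against 827 and 1062 units in DMSO (log2 fold change -1.46). Irf5, an interferon regulatory factor of macrophages, had 47.7 and 32.5 units in rapamycin, against 126 and 153 units in DMSO. Irf8, which drives monocyte fate, had 60.5 and 29.1 units in rapamycin, against 120 and 125 units in DMSO, and its call was lost without the second DMSO library (adjusted p = 0.0587). The number of lower factors was 9 without the first rapamycin library (within 1.5 times of 13), 5 without the second, 3 without the first DMSO library and 2 without the second.

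Of 25 tested cytokine and growth factor receptor genes, 1 (Kit) was higher and 7 were lower, with a median of -0.43; 4 were lower without the second rapamycin library and 2 without either DMSO library. Csf2rb2, the mouse receptor chain that serves interleukin-3, had 104 and 76.2 units in rapamycin, against 188 and 236 units in DMSO. Dusp6, a phosphatase that limits ERK and is itself induced by ERK signalling, had 264 and 220 units in rapamycin, against 79.8 and 75.5 units in DMSO, a log2 fold change of 1.62 (adjusted p = 1.82e-05). The tyrosine phosphatase genes Ptpn1 and Ptpn6, which dampen cytokine signalling, were lower by -0.87 and -0.77. Pik3ip1, an inhibitor of PI3 kinase and a FOXO target, was higher by 1.23.

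**Figure D2:**
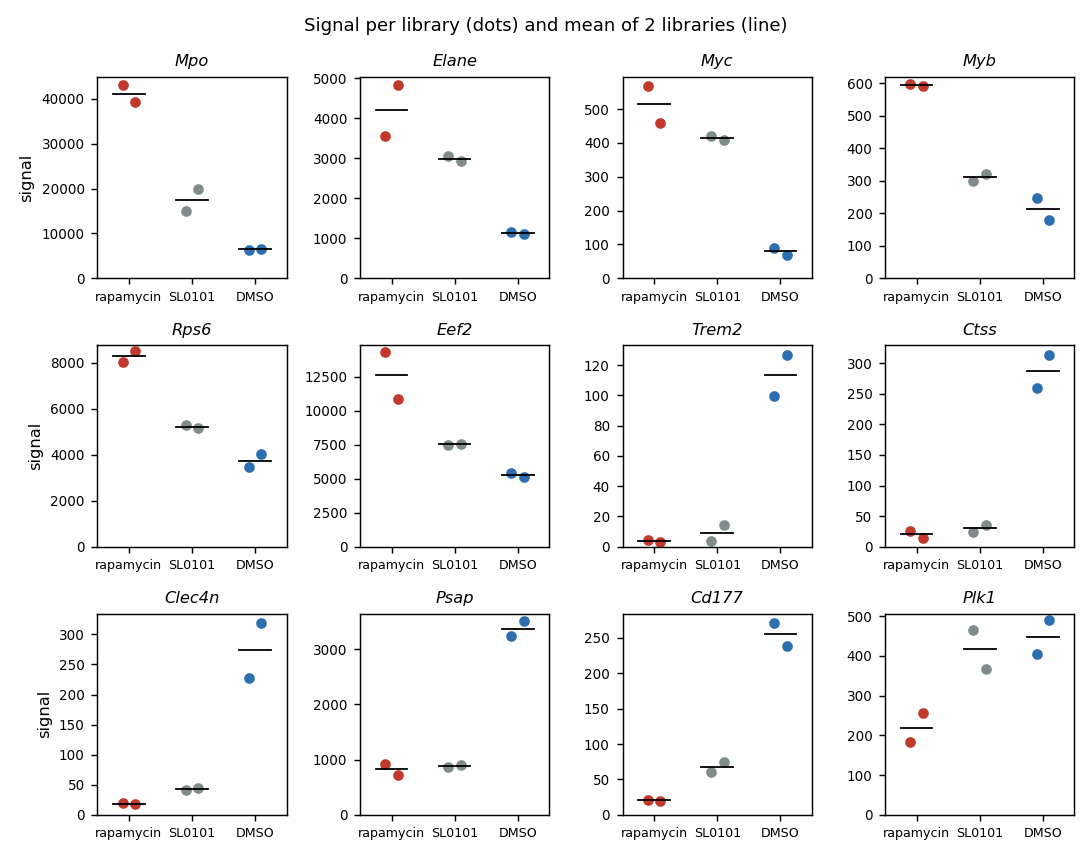
Signal per library (points, linear axes from 0) and the mean of each group (lines) for 12 genes, with the 2 rapamycin libraries at the left of each panel, the 2 SL0101 libraries in the middle and the 2 DMSO libraries at the right. Mpo, Elane, Myc, Myb, Rps6 and Eef2 were higher in rapamycin than in DMSO, and Trem2, Ctss, Clec4n, Psap, Cd177 and Plk1 were lower.

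Nearly all cytosolic ribosomal protein genes, which encode the structural parts of the ribosome, were higher in rapamycin. Of 77 tested, 73 passed as higher and none as lower, and all 77 had a fold change above 0, between 0.08 and 1.41 on the log2 scale with a median of 0.95. Together these genes took 10.6% and 12.1% of all signal in rapamycin, against 5.41% and 6.06% in DMSO. The count was 48 without the first DMSO library and 64 to 75 without any other library, but 4 without limma's trend and robust moderation. The median lay between 0.79 and 1.00 under each scaling tried. Rpl4 had 11200 and 11320 units in rapamycin, against 4422 and 5142 units in DMSO. Rplp0, of the ribosomal stalk, had 13110 and 12790 units in rapamycin, against 5053 and 5948 units in DMSO. Rpl12 showed the largest difference, with 3869 and 4667 units in rapamycin, against 1476 and 1731 units in DMSO (log2 fold change 1.41 ± 0.14, adjusted p = 1.2e-06). Rps7 was higher by 1.30. Many ribosomal protein genes have processed pseudogenes, and 4 of the 77 (Rpl26, Rpl30, Rpl34 and Rps27) had values that were not whole multiples of 1 fragment.

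The start of such a message is shown for 3 ribosomal protein genes, because their 5′ pyrimidine run is the feature by which mTORC1 is known to control translation. Each sequence is 30 bases around the transcript start that RefSeq gives on GRCm38.p6, read on the gene's strand, and the capitals mark the run of C and T that begins at that start. Rps6 lies at chr4:86857353-86857382 on the minus strand, Rps18 at chr17:33955651-33955680 on the minus strand and Rpl14 at chr9:120571502-120571531 on the plus strand.
Rps6: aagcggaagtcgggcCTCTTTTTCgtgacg
Rps18: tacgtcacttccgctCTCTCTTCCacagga
Rpl14: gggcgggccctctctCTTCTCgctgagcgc
These genes were chosen for their starts. Rps6, the ribosomal protein that the mTORC1 pathway's S6 kinases phosphorylate, had 8046 and 8499 units in rapamycin, against 3457 and 4012 units in DMSO. Rps18 had 2834 and 4131 units in rapamycin, against 1545 and 1848 units in DMSO. Rpl14, the least abundant of these, had 385 and 442 units in rapamycin, against 164 and 213 units in DMSO. The rapamycin libraries were above the DMSO libraries for all 3, by 1.15, 1.02 and 1.14 on the log2 scale. A start of C and at least 4 further pyrimidines was found at the annotated start of 3.01% of 27025 genes with a promoter window. Only 56 of the 77 ribosomal protein genes matched a window, under the 80% needed, so their share is not compared. Of those matched, 13 of the 14 with such a start and 40 of the 42 without it were higher in rapamycin.

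Of 44 nucleolar ribosome biogenesis genes, 30 were higher in rapamycin and none was lower, with a median of 0.77. Ppan, a factor of large-subunit maturation, had 171 and 162 units in rapamycin, against 46.6 and 49.0 units in DMSO (log2 fold change 1.78 ± 0.21, adjusted p = 7.4e-06). Npm1, nucleophosmin, had 2536 and 2452 units in rapamycin, against 1046 and 1209 units in DMSO. Wdr12, a partner in the same maturation step, and Nop56, of the box C/D small nucleolar particles, were higher by 1.33 and 1.15. The number of higher nucleolar genes was 18 without the first rapamycin library, 12 without either DMSO library and 3 without trend and robust moderation.

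Of 44 translation factor genes, 18 were higher in rapamycin and none was lower, with a median of 0.49. Eef2, which moves the ribosome along the message, had 14360 and 10900 units in rapamycin, against 5440 and 5143 units in DMSO. Eef1a1, which delivers aminoacyl-tRNA, had 15900 and 14370 units in rapamycin, against 6959 and 7963 units in DMSO. Eef1b2, its exchange factor, had 5013 and 5956 units in rapamycin, against 1945 and 2049 units in DMSO (log2 fold change 1.45 ± 0.13, adjusted p = 3.99e-07). These elongation factor messages also belong to the pyrimidine-start class, and each was at least 2-fold higher in rapamycin. Eif3f, an initiation factor subunit, was higher by 1.22. The count was 10 without the first DMSO library, 11 without the second and 1 without trend and robust moderation, and the call of Eef2 was lost with quantile normalization (adjusted p = 0.119).

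Smaller shares of other biosynthetic lists passed. Of 24 purine and pyrimidine synthesis genes, 7 were higher in rapamycin and 1 was lower, with a median of 0.39. Impdh2, the rate-limiting enzyme of guanine nucleotide synthesis, had 752 and 601 units in rapamycin, against 369 and 337 units in DMSO. Pfas, an enzyme of the purine ring pathway, had 212 and 192 units in rapamycin, against 99.6 and 83.0 units in DMSO. The lower gene, named after its values were seen, was Rrm2, a subunit of ribonucleotide reductase (log2 fold change -0.58), whose call was lost without the first rapamycin library (adjusted p = 0.0941) or either DMSO library (0.152 and 0.0998). The number of higher genes in this list was 3 without the first rapamycin library, 3 without the first DMSO library and 4 without the second.

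Of 36 chaperone and endoplasmic reticulum stress genes, 11 were higher and 1 was lower, with a median of 0.22; 2 were higher without the first DMSO library and 4 without the second. Hsp90ab1, the constitutive cytosolic HSP90, had 5076 and 4101 units in rapamycin, against 2161 and 2371 units in DMSO. Calr, calreticulin, which folds glycoproteins and also assists myeloperoxidase, had 1465 and 1215 units in rapamycin, against 740 and 663 units in DMSO. The lower gene, Atf3, a stress-induced factor named after its values were seen, had 1.83 and 2.24 units in rapamycin, against 12.6 and 12.4 units in DMSO, and lost its call without the first rapamycin library (adjusted p = 0.0643) or either DMSO library (0.146 and 0.142).

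Of 29 amino acid and one-carbon synthesis genes, 5 were higher and none was lower. Psat1, of serine synthesis, had 407 and 381 units in rapamycin, against 210 and 222 units in DMSO (adjusted p = 0.00114). Shmt2, of mitochondrial serine use, was higher by 0.80 and lost its call without the first DMSO library (adjusted p = 0.0945). Without 1 library the count was 2 (first rapamycin or second DMSO library) or 3 (second rapamycin or first DMSO library). Asns and Mthfd2, established targets of the mTORC1 and ATF4 axis, did not pass. Asns had 293 and 282 units in rapamycin, against 243 and 287 units in DMSO (adjusted p = 0.694). Mthfd2 had 167 and 138 units in rapamycin, against 213 and 209 units in DMSO (adjusted p = 0.0901). Ldha, lactate dehydrogenase and a glycolytic target of the complex, had 1649 and 1604 units in rapamycin, against 1483 and 1618 units in DMSO, and the groups overlapped. Of the 23 glycolysis genes 3 were higher and 1 was lower (median 0.04). Of 76 oxidative phosphorylation genes none was higher and 5 were lower (median -0.07), near the 6.52% of all tested genes that were lower. Both counts rest on single libraries: 16 oxidative phosphorylation genes were lower without the second rapamycin library, against 1 without the first rapamycin or the first DMSO library and 0 without the second DMSO library, and no glycolysis gene was higher without the first rapamycin or the second DMSO library, against 1 without the first DMSO library.

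Amino acid transport had 1 member among the largest increases. Slc43a1, a transporter of large neutral amino acids, had 20.2 and 39.2 units in rapamycin, against 3.95 and 4.98 units in DMSO (log2 fold change 2.42, adjusted p = 0.000625). Nme4, a mitochondrial nucleoside diphosphate kinase, had 35.7 and 29.1 units in rapamycin, against 7.11 and 4.15 units in DMSO. Tdrd5, a tudor-domain protein known from germ cells, had 25.7 and 17.9 units in rapamycin and was listed at 0 in both DMSO libraries, and so entered the test only through rapamycin.

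Of 39 tested mitosis genes, 27 were lower in rapamycin and none was higher, and all 39 had a fold change below 0, with a median of -0.67. The genes for DNA replication and S phase did not follow: of 46 tested, none passed in either direction by limma (5 had an unadjusted p under 0.05, and 0 passed with voom weights), and their median was -0.05. The number of lower mitosis genes was 14 without the first rapamycin library, 12 without the first DMSO library and 8 without the second, and 1 without limma's trend and robust moderation.

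Promoters of mitotic genes often carry the cell cycle homology region, whose letters are TTTGAA, and the sites of 3 of them are shown for that reason. The letters were searched on both strands of 300 bases, 250 before and 50 from the RefSeq start on GRCm38.p6, and capitals mark them, for Kif22 as the reverse complement TTCAAA. Plk1 lies at chr7:122159453-122159482 on the plus strand, Prc1 at chr7:80294434-80294463 on the plus strand and Kif22 at chr7:127042618-127042647 on the minus strand.
Plk1: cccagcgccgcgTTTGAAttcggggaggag
Prc1: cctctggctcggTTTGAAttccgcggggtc
Kif22: ccaacctggcaaTTCAAAagcctgaaagtg
Plk1, the kinase that drives mitotic entry and exit, had 182 and 255 units in rapamycin, against 406 and 491 units in DMSO. Prc1, which bundles microtubules of the central spindle, had 235 and 288 units in rapamycin, against 491 and 488 units in DMSO. Kif22, a kinesin that moves chromosomes, had 198 and 211 units in rapamycin, against 402 and 432 units in DMSO. Each was lower in both rapamycin libraries, by -1.05 ± 0.18 for Plk1, -0.91 ± 0.15 for Prc1 and -1.03 ± 0.15 for Kif22 (SE, n = 2 each); Plk1 missed the threshold without the second DMSO library (adjusted p = 0.0505). The letters were in the window of 24 of the 33 mitosis genes that had one (72.7%), and in 20.2% of all 27025 genes with a window; too few of all tested genes matched a window to give their share. Within the list they did not separate the genes that passed, since 15 of the 24 with the letters and 8 of the 9 without them were lower in rapamycin.

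Of 15 tested regulators of the cell cycle start, 2 were higher and 1 was lower. Over all tested genes 5.48% were higher and 6.52% were lower, so the lower count is near that share. Ccnd2, cyclin D2, had 134 and 117 units in rapamycin, against 30.0 and 13.3 units in DMSO, a log2 fold change of 2.58 ± 0.31 (SE, n = 2 each, adjusted p = 1.16e-05). Cdk6, a kinase partner of D cyclins, had 768 and 644 units in rapamycin, against 338 and 301 units in DMSO. Cdkn2d, the inhibitor p19 of that kinase, had 248 and 208 units in rapamycin, against 452 and 456 units in DMSO. Cyclin D2 and its partner were thus higher in every rapamycin library and the inhibitor lower, while the other 12 of the 15 tested genes of this list did not pass; without the first or the second rapamycin library 2 and 3 of the list were lower. Cdc25b, a phosphatase that activates mitotic kinases, was lower by -1.20. Of the 10 genes around Myc, 1 (Myc) was higher and 2 were lower. Mxd1, which competes with Myc for its partner Max, had 496 and 466 units in rapamycin, against 868 and 880 units in DMSO, and Mxd3, of the same family, was lower by -1.49.

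Of 62 tested lysosomal genes, 27 were lower in rapamycin and 1 was higher, while 34 did not pass, with a median of -0.42. Psap, the precursor of the saposins that help to digest sphingolipids, had 918 and 725 units in rapamycin, against 3240 and 3504 units in DMSO. Ctsc, cathepsin C, which activates the granule proteases, had 259 and 195 units in rapamycin, against 620 and 635 units in DMSO. Lipa, lysosomal acid lipase, had 309 and 264 units in rapamycin, against 811 and 701 units in DMSO. The rapamycin libraries were well below DMSO for these enzymes, with log2 fold changes of -2.04 ± 0.14 for Psap (adjusted p = 1.06e-08), -1.48 ± 0.16 for Ctsc and -1.40 ± 0.16 for Lipa. Ctss, Cd68 and Gpnmb are members of this list and of the monocyte list. The gene that was higher, Arsb, encodes arylsulfatase B and was named after its values were seen; it had 1234 and 1190 units in rapamycin, against 838 and 809 units in DMSO, and lost its call without the first (adjusted p = 0.0842) or the second DMSO library (0.12). The number of lower genes was 17 without the second rapamycin library, 12 without the first DMSO library and 13 without the second, and 4 without trend and robust moderation.

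Ctsd, cathepsin D, carries the coordinated lysosomal element that TFEB, a factor held in the cytoplasm by active mTORC1, is known to bind, and its site is shown for that reason. The 30 bases lie at chr7:142387908-142387937 on the minus strand of GRCm38.p6, from RefSeq, and capitals mark the letters TCACGTGA, which read the same on both strands and contain the E-box CACGTG.
Ctsd: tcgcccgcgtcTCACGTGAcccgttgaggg
Ctsd had 4158 and 3608 units in rapamycin, against 7117 and 7306 units in DMSO, so that both rapamycin libraries were lower (log2 fold change -0.90 ± 0.13, SE, n = 2 each, adjusted p = 8.41e-05). These letters were found for 1.12% of the 27025 genes with a promoter window. Only 47 of the 62 lysosomal genes matched a window, under the 80% needed, so no share is given for the list.

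Of 32 genes of autophagy and the TFEB family, 1 was higher in rapamycin and 6 were lower. Atg12, a ubiquitin-like protein that conjugates to Atg5, had 405 and 344 units in rapamycin, against 193 and 213 units in DMSO. Atg5 itself was lower, with 233 and 207 units in rapamycin, against 421 and 366 units in DMSO (log2 fold change -0.84, adjusted p = 0.00173). Fnip2, a folliculin partner in the lysosomal signalling of mTORC1, had 28.4 and 38.1 units in rapamycin, against 165 and 137 units in DMSO (log2 fold change -2.16, adjusted p = 1.58e-05). Without the first DMSO library 1 gene of the list was lower and without the second 3. Of 16 haem and iron genes, 3 were higher and 4 were lower, with 1 higher without either DMSO library. Slc11a1, the phagosomal metal transporter NRAMP, had 93.5 and 67.2 units in rapamycin, against 329 and 414 units in DMSO (log2 fold change -2.20, adjusted p = 6.37e-07). The ferritin genes Fth1 and Ftl1 were lower by -0.81 and -0.77, and Ftl1 had 13440 and 12260 units in rapamycin, against 19810 and 24340 units in DMSO.

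**Figure D3:**
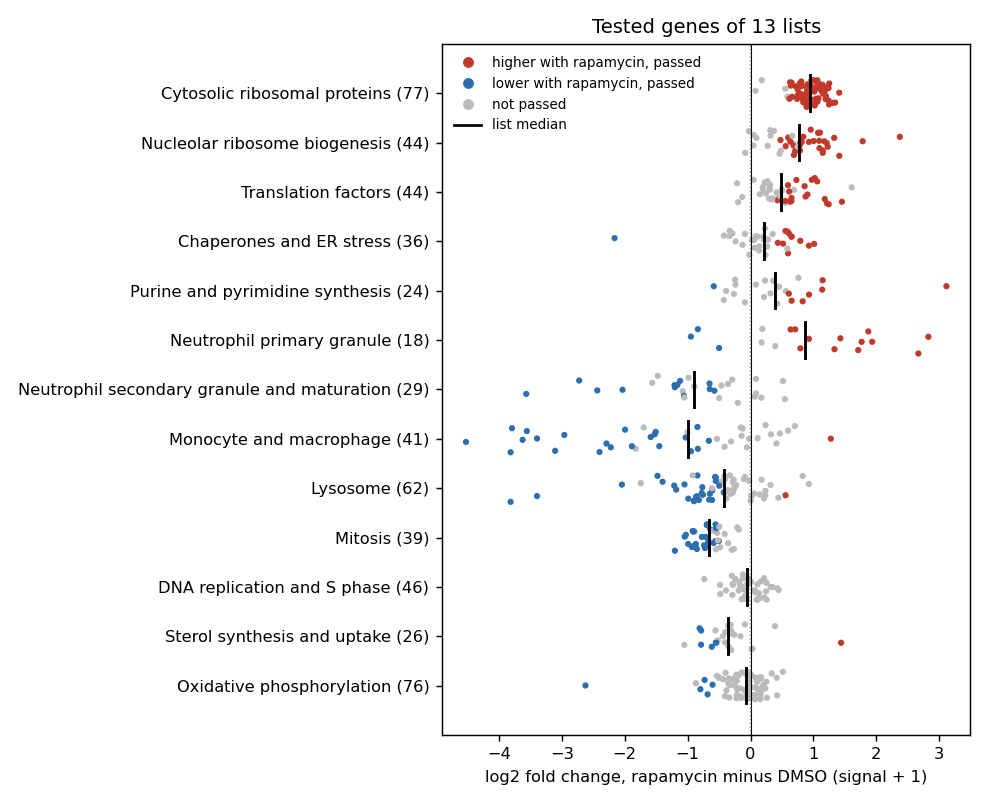
Log2 fold change (rapamycin minus DMSO, of value plus 1) of every tested gene of 13 gene lists, with a bar at each list's median and a dotted line at the median of all tested genes, -0.01. All 77 cytosolic ribosomal protein genes lie above 0 and all 39 mitosis genes below 0, while the primary granule list holds genes on both sides.

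Lipid synthesis genes are known to be controlled by SREBP factors downstream of mTORC1. Of 26 sterol genes, 6 were lower in rapamycin and 1 was higher, with a median of -0.35. Hmgcs1, an early enzyme of the pathway, had 395 and 377 units in rapamycin, against 634 and 725 units in DMSO (log2 fold change -0.81, adjusted p = 0.000616). Sqle, squalene epoxidase, and Cyp51, a sterol demethylase, were lower by -0.78 and -0.79; Sqle missed the threshold without the first DMSO library (adjusted p = 0.0855) and Cyp51 without the second (0.0737). Only 2 sterol genes were lower without either DMSO library. Of 20 fatty acid genes, 3, all desaturases, were lower and none was higher. Fads2, which desaturates polyunsaturated fatty acids, had 12.8 and 13.4 units in rapamycin, against 75.9 and 74.7 units in DMSO (log2 fold change -2.43 ± 0.28, adjusted p = 7.4e-06), and Scd2, a stearoyl-CoA desaturase, was lower by -1.18.

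The transcripts of the mTOR complexes themselves mostly did not pass. The median of 27 tested genes of mTORC1, mTORC2 and the TSC complex was -0.14. None was lower in rapamycin and 1 was higher, near the 5.48% of all tested genes that were higher. That gene was Eif4ebp1, a translation repressor that mTORC1 phosphorylates, with 416 and 469 units in rapamycin, against 283 and 320 units in DMSO (log2 fold change 0.55, adjusted p = 0.0199). Its call was lost without the second rapamycin library (0.1), the first DMSO library (0.231) or the second DMSO library (0.0857). Mtor had 98.1 and 108 units in rapamycin, against 134 and 104 units in DMSO, and the groups overlapped. Rptor, which encodes Raptor, had 63.2 and 68.3 units in rapamycin, against 111 and 102 units in DMSO (adjusted p = 0.0533). Tsc2 had 302 and 226 units in rapamycin, against 322 and 330 units in DMSO (adjusted p = 0.246).

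Lists of genes that mark other cells held many members at 0. Of 30 lymphoid genes 18 were at 0 in all 4 libraries, and the sum of the list was 116 and 109 units in rapamycin, against 22.9 and 27.4 units in DMSO, most of it in rapamycin from Nkg7, which is also in the primary granule list. Of 24 basophil, mast cell and eosinophil genes 12 were at 0, and the sum was 1448 and 1368 units in rapamycin, against 949 and 938 units in DMSO; 2 of the 11 tested were higher. Siglec5, an inhibitory receptor of granulocytes, was 1 of them, with 310 and 332 units in rapamycin, against 119 and 109 units in DMSO. The other was the mast cell protease gene Cpa3, with 5.50 and 13.4 units in rapamycin and a listed 0 in both DMSO libraries, so that it entered the test only through rapamycin. Of 33 erythroid and megakaryocyte genes 10 were at 0, and the sum was 1151 and 1262 units in rapamycin, against 884 and 917 units in DMSO.

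Of 22 dendritic cell and MHC class II genes 5 were at 0, and the sum was 234 and 244 units in rapamycin, against 371 and 551 units in DMSO. Cd74, the invariant chain of MHC class II, had 3.67 and 3.36 units in rapamycin, against 44.3 and 67.2 units in DMSO (log2 fold change -3.62). Of 15 fibroblast genes 6 were at 0, and the sum was 155 and 147 units in rapamycin, against 725 and 583 units in DMSO. Most of that sum was Fn1, fibronectin, which macrophages make too, with 119 and 90.7 units in rapamycin, against 673 and 521 units in DMSO (log2 fold change -2.50, adjusted p = 3.01e-08). Malat1, a nuclear RNA often used as a sign of RNA quality, had 2266 and 2244 units in rapamycin, against 1489 and 1554 units in DMSO, and lost its call without the first (adjusted p = 0.126) or the second DMSO library (0.0878). The part of these markers in the differences above was not tested.

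SL0101, an inhibitor of the RSK kinases, was given at 10 nM per the labels, a dose not matched to rapamycin and far below those in common use, so that its values here cannot be read as RSK inhibition. Rapamycin differed from SL0101 in 1025 of 11527 genes (8.89%), 514 higher and 511 lower, and SL0101 from DMSO in 1266 genes (11.0%), 591 higher and 675 lower. Both comparisons share libraries with that of rapamycin and DMSO, so their values are only set side by side. The count against SL0101 rests strongly on single libraries, at 105 without the first SL0101 library and 613 without the second rapamycin library.

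Ribosomal protein genes were higher in rapamycin than in SL0101 for 58 of 77 (median 0.61), and 20 of 77 were higher in SL0101 than in DMSO (median 0.34). They made up 10.6% and 12.1% of signal in rapamycin, against 7.51% and 7.55% in SL0101. Mpo had 43030 and 39290 units in rapamycin, against 14940 and 20000 units in SL0101 (log2 fold change 1.25, adjusted p = 3.44e-05). Mitosis genes were lower in rapamycin than in SL0101 for 23 of 39 (median -0.61), and 2 of 39 were lower in SL0101 than in DMSO (median -0.09). DNA replication and S phase genes, none of which passed against DMSO, were lower in rapamycin than in SL0101 for 12 of 46 (median -0.42). Of these 46 genes, 12 were higher in SL0101 than in DMSO (median 0.33). The count of 12 lower genes was 5 with only the groups compared in the fit and 0 without trend and robust moderation. Sterol genes were lower in rapamycin than in SL0101 for 13 of 26 (median -0.60), and 4 of 26 were higher in SL0101 than in DMSO (median 0.29). Without the first SL0101 library only 5 ribosomal, 6 mitotic and 4 sterol genes passed, and without trend and robust moderation none of them did. With only the groups compared in the fit 33 ribosomal, 16 mitotic and 9 sterol genes passed. The ribosomal count was also 23 without the second rapamycin and 30 without the second SL0101 library, the mitotic count 13 without the first rapamycin or the second SL0101 library, and the sterol count 7 and 6 without the second rapamycin and the second SL0101 library.

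Between the inhibitors, the shares of nucleolar and lysosomal genes that passed were near the 8.89% of all genes. Nucleolar genes were higher in rapamycin than in SL0101 for 2 of 44 and lower for 1 (median -0.04), and 27 of 44 were higher in SL0101 than in DMSO (median 0.75). Lysosomal genes were higher in rapamycin than in SL0101 for 1 of 62 and lower for 4 (median -0.09), and 23 of 62 were lower in SL0101 than in DMSO (median -0.37). Psap had 918 and 725 units in rapamycin, against 866 and 893 units in SL0101, and the libraries overlapped (log2 fold change -0.11 ± 0.14, SE, adjusted p = 0.701). Myc had 569 and 459 units in rapamycin, against 419 and 408 units in SL0101 (log2 fold change 0.30 ± 0.18, SE, adjusted p = 0.308). Primary granule genes were higher in rapamycin than in SL0101 for 8 of 18 and lower for 1 (median 0.47), and 10 of 18 were higher in SL0101 than in DMSO (median 0.61). Monocyte and macrophage genes were higher in rapamycin than in SL0101 for 10 of 41 and lower for 4 (median 0.19), and 26 of 41 were lower in SL0101 than in DMSO (median -1.15). Against SL0101, the count of higher primary granule genes was 4 without the second rapamycin and 2 without the first SL0101 library, and that of higher monocyte genes 6 without the first rapamycin and 4 without the first SL0101 library. A test that misses the threshold does not show that the inhibitors act alike.

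**Figure D4:**
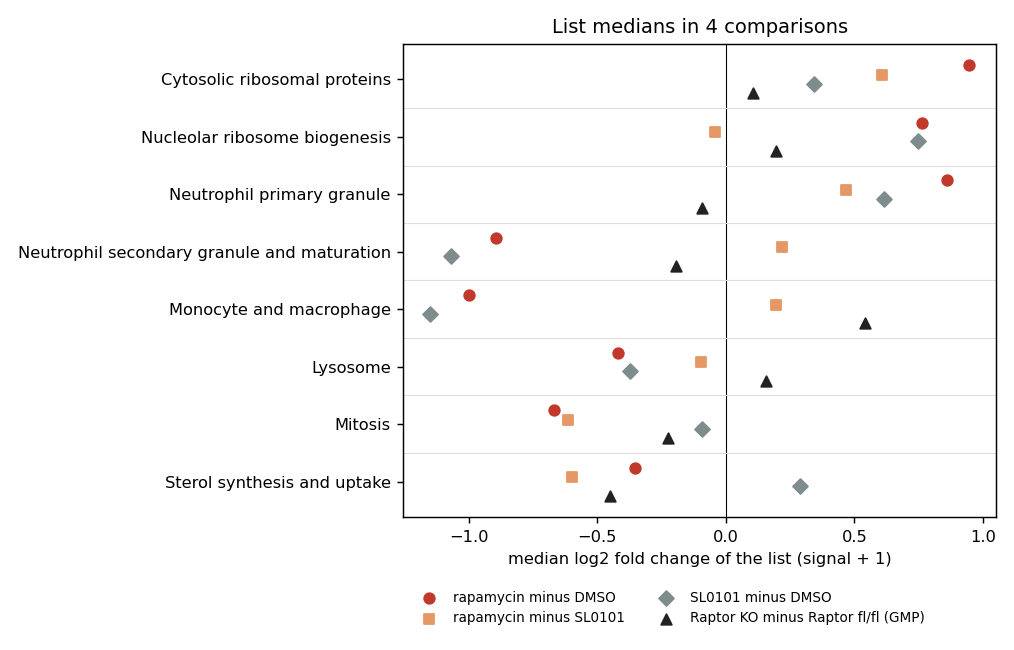
Median log2 fold change of 8 gene lists in 4 comparisons: rapamycin minus DMSO, rapamycin minus SL0101, SL0101 minus DMSO and Raptor KO minus Raptor fl/fl; the comparisons within the line share libraries. The ribosomal protein median is 0.95 in rapamycin minus DMSO and 0.10 in Raptor KO minus Raptor fl/fl.

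Raptor KO targets mTORC1 by a different route and in other cells, sorted granulocyte-monocyte progenitors that had not been differentiated in culture. Rptor, the targeted gene, had 61.5, 58.7 and 69.5 units in Raptor KO libraries, against 88.0, 78.6 and 86.8 units in Raptor fl/fl libraries; the groups did not overlap, but the difference did not pass (adjusted p = 0.377). In Raptor KO 522 of 13237 genes passed against Raptor fl/fl (3.94%). The rapamycin effect minus the Raptor KO effect passed in 499 of 13821 genes (3.61%). Over 11148 genes tested in both, the log2 fold changes had a Pearson r of 0.08 and a Spearman rho of 0.12, across genes that are not independent replicates. Of 626 genes higher in rapamycin, 65.5% had a fold change above 0 in Raptor KO, against 52.8% of all genes. Of 726 genes lower in rapamycin, 56.3% were below 0 in Raptor KO, against 47.2% of all genes. Genes that passed in both comparisons were 27 higher in both and 39 lower in both, while 8 were higher in rapamycin and lower in Raptor KO and 17 were the reverse.

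Growth and progenitor genes were among those higher in both. Myc averaged 1250 ± 50.9 units in Raptor KO and 764 ± 75.5 units in Raptor fl/fl (SD, n = 3 each; log2 fold change 0.71, adjusted p = 0.0043). Kit averaged 1208 ± 105 units in Raptor KO and 788 ± 37.3 units in Raptor fl/fl (adjusted p = 0.00757). Eef2 averaged 13020 ± 336 units in Raptor KO and 8872 ± 465 units in Raptor fl/fl (adjusted p = 0.00154). Of the ribosomal protein genes, 6 of 77 were higher and 1 was lower in Raptor KO (median 0.10), and the effect of rapamycin was the larger for 49 of 77 by the test of the difference.

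Macrophage and lysosome genes differed between the comparisons. Of the monocyte and macrophage genes, 8 of 41 were higher and 1 was lower in Raptor KO (median 0.54), and of the lysosomal genes 7 of 62 were higher and none was lower (median 0.16). By the test of the difference, the rapamycin effect was below the Raptor KO effect for 14 of 41 monocyte and macrophage genes, above it for 1, and below it for 18 of 62 lysosomal genes. Gpnmb averaged 384 ± 209 units in Raptor KO and 1.87 ± 2.05 units in Raptor fl/fl (log2 fold change 7.18, adjusted p = 8.43e-06). Psap averaged 775 ± 177 units in Raptor KO and 325 ± 3.66 units in Raptor fl/fl. Ctss averaged 300.2 ± 66.9 units in Raptor KO and 88.5 ± 12.6 units in Raptor fl/fl. All 3 were lower in rapamycin than in DMSO, and the difference between the effects passed for each (adjusted p = 2.27e-07 for Gpnmb, 1.59e-08 for Psap and 2.27e-08 for Ctss; SD, n = 3 each). Mpo averaged 37670 ± 419 units in Raptor KO and 46580 ± 2240 units in Raptor fl/fl, a log2 fold change of -0.31 with an adjusted p of 0.824, and the difference from the rapamycin effect missed the threshold (adjusted p = 0.0579). Cells, culture and the way mTORC1 was targeted all differ between these comparisons and cannot be told apart.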

How the data were processed

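RNA was isolated with a Qiagen micro kit and sequenced by a SmartSeq2 low-input protocol, per the labels' protocols. Tools in the submitters' processing notes are TopHat2 2.0.10, BWA, Cuffnorm and Cufflinks 2.2.1; genome build: not given in the sources used here. What the authors deposited is a signal per gene, that is, estimated fragments scaled by library size factors. In a library, 99.04% to 99.07% of values above 0 in the rapamycin and DMSO libraries were whole multiples of 1 step (tolerance 0.05), which gave the depth; as not every value was whole, no test for whole counts was run. Tests used limma 3.58.1 in R 4.3.3 on log2(value + 1), with an expression trend and robust moderation, fitted on all 6 Hoxb8 libraries in 3 groups. Raptor KO and Raptor fl/fl were fitted with all 12 progenitor libraries, which include those of Tsc2 KO and Tsc2 fl/fl. The difference of effects was fitted with all 18 libraries, 7 groups, and so also with the Tsc2 libraries. Simulated data with known changes were used to check the test.

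With group means removed, equally numbered rapamycin and DMSO libraries correlated at r = 0.051, so numbers were not used to pair them. Within groups, log2 values of the rapamycin libraries correlated at 0.987 and those of the DMSO libraries at 0.990. Members and the 45 gene lists were chosen with earlier results of these data known. Named genes are some of: the 15 highest and 15 lowest fold changes among genes that passed, with a mean of 20 or more in the higher group and no overlap; up to 4 members that passed per list, smallest p first; and a set of pathway and lineage genes. Genes outside that rule are said to be so, and a few genes it names are not reported here. Alternatives covered the pseudocount, the filter, quantile normalization, the moderation, the libraries in the fit, a replicate block, leaving out each library, voom weights and scaling to common totals. Motifs were searched in RefSeq promoter windows of GRCm38.p6, which 8796 of the 11527 tested genes matched. Of near-identical genes, H2-T22 and H2-T9 may share fragments, and their values are not interpreted.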

Additional observations from a re-analysis of the deposited data

How the results depend on the processing

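With pseudocounts of 0.5 or 5, other filters, quantile normalization, only the groups compared, voom weights or common totals (the last 2 chosen after seeing the data), 554 to 710 genes were higher and 616 to 813 lower in rapamycin than in DMSO. Without trend and robust moderation 93 were higher and 126 lower, and 13 differed from SL0101. Leaving out 1 library gave 257 to 473 higher genes, 221 to 648 lower genes and 105 to 733 that differed from SL0101. With only the groups compared 501 genes differed from SL0101. With the replicate block 812 genes were higher, 1020 lower and 1661 differed from SL0101, but the numbers are not shown to pair libraries. Atg5, Fos and Jun were not followed through the alternatives. Of 100 genes that passed and were followed, 41 did so in every alternative. The 100 include Col1a1, Itgax and H2-DMa, which were lower in rapamycin and are not described above. In this set 59 missed the threshold without trend and robust moderation and 18 without at least 1 library, and no fold change reversed. Ly6c2, which did not pass, changed sign without the second DMSO library, with a range of -0.399 to 0.116 over the left-out libraries; the cause was not tested. The difference from the Raptor KO effect passed in 578 genes with a pseudocount of 5 and in 521 with a minimum of 10. Count tests (edgeR, DESeq2) were planned and not run, since about 1% of values above 0 were not whole fragments. With 2 libraries a group, calls depend on the variance shared across genes, and genes near 1 fragment carry little information. Without trend and robust moderation no sterol, purine and pyrimidine, amino acid synthesis, chaperone or receptor gene passed, and of the myeloid transcription factors 1 was higher and 2 were lower.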

Other observations

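Further gene groups were counted in rapamycin against DMSO, where 5.48% of all tested genes were higher and 6.52% lower. Of 20 tRNA synthetase genes 4 were higher and none was lower, with a median log2 fold change of 0.21, and none was higher without the first rapamycin library or either DMSO library. Of 15 amino acid transporter genes 3 were higher and 2 were lower, and 1 was higher without the first rapamycin library or either DMSO library. Of 46 mitochondrial ribosomal protein genes 2 were higher and none was lower, with a median of 0.16, set against 73 of 77 for the cytosolic ones. Of 36 proteasome genes 1 was lower and none was higher.

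Of 22 integrin and adhesion genes 1 was higher and 5 were lower (median -0.28), and 2, 1 and 0 were lower without the second rapamycin, the first DMSO and the second DMSO library. Of 29 interferon response genes none was higher and 2 were lower (median -0.37). Chemokine and cytokine genes were 2 higher and 2 lower of 18. Of 20 genes induced by ERK or limiting it 4 were higher, Myc and Dusp6 among them, and 2 were lower. The lower ones were Jun and Fos, with log2 fold changes of -1.53 and -1.01. FOXO target genes were 4 higher, with Ccnd2 and Pik3ip1 among them, and 2 lower of 23. Cytokine feedback genes were 1 higher and 2 lower of 9, hypoxia genes 1 higher of 16, Bcl2 family genes 1 higher and 1 lower of 14, and p53 target genes 1 higher and 2 lower of 14. The interferon count is near the share over all genes, and in lists this small nothing is read from the other counts. Without either DMSO library each count in this and the previous paragraph was between 0 and 2, and none of the lists was tested as a group.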
